A study of Mus musculus with 1152 samples.

Results

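The genes of oxidative phosphorylation were examined in single lymphatic endothelial cells (LECs) sorted from the nasopharynx of aged mice, where they line a lymphatic plexus (NPLP). Members were the rows whose symbol begins with mt-, Nduf, Uqcr, Cox4, Cox5, Cox6, Cox7, Cox8 or Atp5, without pseudogene symbols that hold -ps. Of the 23168 genes measured, the members were 76 nuclear encoded subunits, 9 nuclear encoded assembly factors or related genes, 13 mitochondrial mRNAs, 2 mitochondrial rRNAs and 14 mitochondrial tRNAs. The subunits comprised 36 nuclear and 7 mitochondrial genes of complex I, 8 and 1 of complex III, 17 and 3 of complex IV, and 15 and 2 of complex V.

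The cells came from the nasopharyngeal mucosa of C57BL/6 mice labelled as aged, for which the labels gave neither an age nor an animal. CD31+ podoplanin+ cells had been sorted into wells and read with Smart-seq3, which covers full-length transcripts, and no treated, mutant or adult group was analysed here. Of the cells in the labels 56.9% entered the analysis as 1 pooled sample without replicates, so that all values below are descriptions and none has a test between conditions. The depth of a cell, recovered from the deposited values, lay between 7046 and 10727631 reads (median 148202.5). The 8 LEC identity genes were detected in 87.7% to 100% of cells, 5 listed haematopoietic genes in 0.915% to 9.60%, and 6 listed blood endothelial genes, some of which LECs share, in 2.44% to 96.2%. Intervals given for shares of cells are exact 95% binomial (Clopper-Pearson) intervals and cover counting error only.

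Oxidative phosphorylation takes place in the inner mitochondrial membrane. Complexes I, III and IV pass electrons from NADH to oxygen and pump protons, and complex V, the ATP synthase, uses the returning protons to make ATP. The core membrane subunits are encoded by the mitochondrial genome, which is transcribed as long polycistronic RNAs from both strands and is present in many copies per cell. All other subunits are encoded in the nucleus, and endothelial cells are known to draw much of their ATP from glycolysis.

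Several mitochondrial genes have near-identical copies in the nuclear genome, and these sequences are described first. In the GENCODE M21 annotation (mm10), 7 unprocessed pseudogenes on the minus strand of chr1:24611535-24616197 each matched a mitochondrial gene, or part of it, at 99% identity or higher. These separate matches lie within chrM:6390-11042, a span of 4653 bases that is called the copied run below. Bases between the matches were not compared. mt-Atp8 had no match of its own and is counted in the run by position only. The run starts in mt-Co1 and ends in mt-Nd4. It holds mt-Co2, mt-Atp8, mt-Atp6, mt-Co3, mt-Nd3 and mt-Nd4l between them. The first 60 bases of mt-Co2 (chrM:7013-7072, plus strand) and of its copy Gm28661 (chr1:24615506-24615565, minus strand) had no difference.
mt-Co2: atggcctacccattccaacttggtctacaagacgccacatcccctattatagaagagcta
Gm28661: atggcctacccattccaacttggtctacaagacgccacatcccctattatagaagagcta
In the first 60 bases of mt-Nd3 (chrM:9459-9518, plus strand) and its copy Gm28438 (chr1:24613060-24613119, minus strand), capitals mark the differing base, T3C, counted from 1 at the 5′ end of mt-Nd3. It was the only difference over the matched length.
mt-Nd3: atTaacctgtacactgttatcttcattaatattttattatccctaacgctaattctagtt
Gm28438: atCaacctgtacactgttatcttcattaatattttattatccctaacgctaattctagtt
For contrast, the copy of mt-Nd2 lies outside this run and was 96.7% identical over 510 bases. The 60 bases of mt-Nd2 with the most differences (chrM:4580-4639, plus strand) are shown with those of Gm13339 (chr2:22590336-22590395, minus strand). Capitals mark A668G, C681T, T711C and T726C, counted from the 5′ end of mt-Nd2.
mt-Nd2: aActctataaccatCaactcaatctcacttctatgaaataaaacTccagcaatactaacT
Gm13339: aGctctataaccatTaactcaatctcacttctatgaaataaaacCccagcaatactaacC

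The 13 mitochondrial mRNAs were read at levels that spanned more than 3 orders of magnitude. Levels of single genes are given as reads per 10000 reads of a cell, and levels compared between genes are means over cells of that value per kilobase (kb) of exon. The highest was mt-Cytb, cytochrome b of complex III, at 33.8 reads per 10000 per kb, followed by mt-Co1, the catalytic core of complex IV, at 23.3. The core complex I subunits mt-Nd1, mt-Nd4, mt-Nd2 and mt-Nd5 followed at 14.1, 5.99, 5.52 and 2.45 per kb. These 6 genes were detected in 97.9% to 100% of cells. Within the summed reads of all 13 mRNAs, mt-Cytb and mt-Co1 made up 35.4% and 33.9% (mean over cells).

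The genes inside the copied run were read at much lower levels than their neighbours on both sides. The level of mt-Co2, which carries the copper centre that receives electrons from cytochrome c, was 0.0136 per kb. Those of mt-Co3 and mt-Nd4l were 0.0532 and 0.0746, and those of mt-Atp6 and mt-Atp8, both part of the membrane sector of the ATP synthase, were 0.0384 and 0.0945. mt-Nd3 stood higher than the other genes of the run, at 1.20 per kb. The 2 genes that cross the ends of the run, mt-Co1 and mt-Nd4, were matched over 31.3% and 63.6% of their length and were among the well-read genes.

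**Figure D1:**
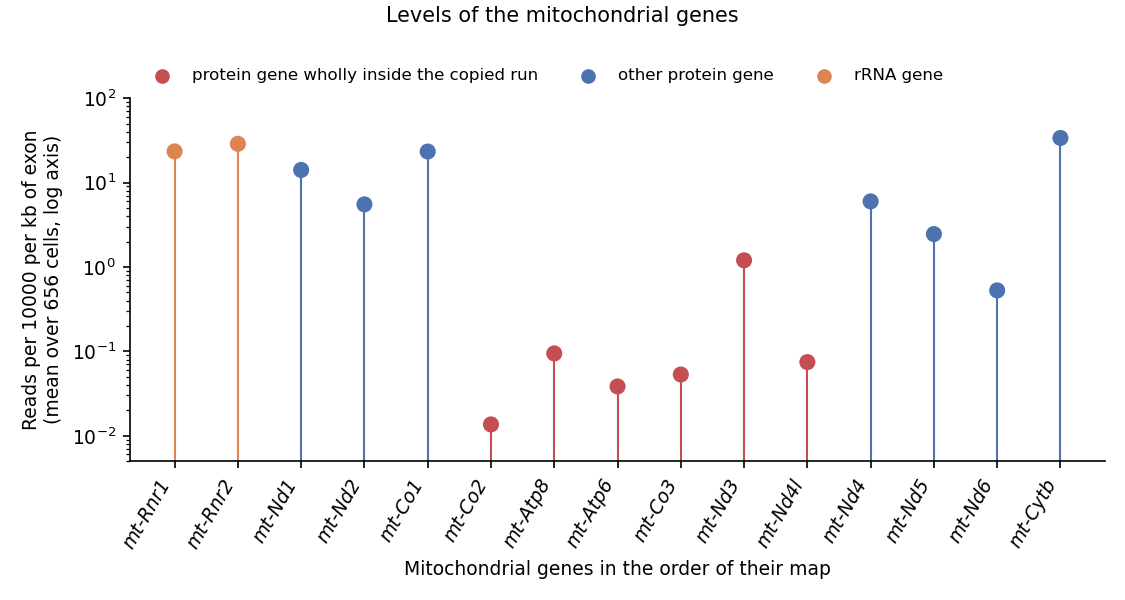
Level of each mitochondrial rRNA and mRNA gene (reads per 10000 per kb of exon, mean over all cells, log axis) in the order of the mitochondrial map. The 6 protein genes wholly inside the copied run lie between 0.0136 and 1.20, whereas mt-Co1 and mt-Nd4 on either side lie at 23.3 and 5.99.

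Per cell, the contrast was as large. mt-Cytb had a median of 31.8 and a highest value of 246.7 reads per 10000, and mt-Co1 had a median of 29.5 and a highest value of 289.98. The median was 0 for mt-Co2, mt-Co3, mt-Atp6, mt-Atp8 and mt-Nd4l. Their highest values in any cell were 0.896, 0.986, 1.20, 2.02 and 1.93 reads per 10000. Even the cell with the most reads of each of these 5 genes was thus far below the median of mt-Co1.

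Detection of the copied genes followed depth. mt-Co2 was detected in 20.6% of cells (17.5 to 23.9%), mt-Co3 in 41.8% (37.96 to 45.6%) and mt-Atp6 in 34.5% (30.8 to 38.2%). Cells with a read of mt-Co2 had a median of 1929208 reads, and cells without one had 85877. For mt-Atp6 these medians were 1156144 and 57935.5. With each cell thinned to 20000 reads, leaving out 88 shallower cells, the shares fell to 1.58% for mt-Co2, 7.57% for mt-Co3 and 4.93% for mt-Atp6. mt-Nd3 was detected in 65.9% (62.1 to 69.5%) of all cells and 44.4% of thinned cells.

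The rows of the nuclear copies were read at similarly low levels, or lower. Gm10925, the copy of mt-Atp6, was detected in 38.6% of cells, and its mean was 1.83 times that of mt-Atp6. Gm28437 and mt-Co3 stood at 0.0613 and 0.0417 reads per 10000, and Gm28661 and mt-Co2 at 0.0256 and 0.00932. These values are means over cells. In reads summed over all cells Gm10925 also exceeded mt-Atp6 (3612 against 2662) and Gm28437 exceeded mt-Co3 (3124 against 2574). Gm28661 had fewer summed reads than mt-Co2, so for this pair the order was reversed. Gm28438, the copy that differs from mt-Nd3 at T3C, had 0.00147 times the mean of mt-Nd3. The more divergent Gm13339 had no read in any cell (exact interval up to 0.561% of cells), whereas mt-Nd2 was detected in 98.6% of cells. The ratio of copy to gene did not follow identity throughout. Gm28439 and Gm10222, identical over their matched length, stood at 0.000585 times mt-Nd4 and 0.391 times mt-Nd4l. Gm29216 and Gm13340, at 99.8% and 97.6% identity, stood at 0.000541 and 0.000275 times mt-Co1. Gm13341, at 95.9% identity, stood at 0.533 times mt-Co2 by means over cells. It was detected in only 3.05% of cells, and by summed reads its ratio to mt-Co2 was much lower. No annotated copy matched mt-Atp8, but the matches of mt-Co2 and mt-Atp6 lie as many bases apart on chrM as Gm28661 and Gm10925 do on chr1. How reads that align to several places were counted is not given in the sources used here, and the part of these copies in the low values was not tested.

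If the reads of both partly matched genes were divided by their unmatched bases alone, the level of mt-Co1 was 33.9 per kb, beside 33.8 for mt-Cytb. That of mt-Nd4 became 16.4, beside 14.1 for mt-Nd1, 5.52 for mt-Nd2 and 2.45 for mt-Nd5. Over their whole lengths mt-Co1 and mt-Nd4 stood at 23.3 and 5.99. The divided values assume that no read of mt-Co1 or mt-Nd4 came from its matched part, which was not tested.

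mt-Atp8 and mt-Atp6 share 43 bases of the same strand. This overlap (chrM:7927-7969) is shown because reads confined to it cannot be assigned to 1 of the genes, and capitals mark the start codon of mt-Atp6.
mt-Atp8 and mt-Atp6 overlap: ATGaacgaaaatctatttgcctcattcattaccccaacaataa

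mt-Nd6, a complex I subunit and the only mitochondrial mRNA of the minus strand in the annotation, was low without lying in the copied run. Its level was 0.527 per kb and it was detected in 61.6% of cells, in 28.5% after thinning. It overlaps mt-Nd5 of the opposite strand at its end, and whether strand was used in counting is not given in the sources used here.

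Both mitochondrial rRNAs, the RNA of the mitochondrial ribosome, were detected in every cell. The level of mt-Rnr2, the large subunit rRNA, was 28.8 per kb and that of mt-Rnr1, the small subunit rRNA, was 23.4. Their summed share of a cell's reads lay between 0.157% and 3.14% (median 0.554%). Of the 14 tRNA genes, mt-Tp, mt-Te and mt-Ta were detected most often, in 53.7%, 35.4% and 31.3% of cells. All 3 are on the minus strand, and the 7 minus strand tRNAs had a median detection of 29.1%, against 3.66% for the 7 on the plus strand. mt-Tn, also of the minus strand, had 0 reads, so the strands overlapped in detection. The plus strand of the annotation carries 12 of the 13 mRNAs, and reads from opposite strands at a tRNA cannot be told apart without knowing the strand setting.

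Nuclear encoded subunits were widely detected at moderate levels. Of all genes measured, 11.8% were detected in 50% of cells or more, and so were 69 of the 76 nuclear subunits, 8 of the 13 mitochondrial mRNAs and 80 members in all. The median nuclear subunit was detected in 76.98% of cells and had a level of 0.961 reads per 10000 per kb, with a range from 0.00186 to 10.2. The corresponding median of the mitochondrial mRNAs was 1.20 per kb, within a range from 0.0136 to 33.8. Both the highest and the lowest nuclear level thus lay below the corresponding mitochondrial one.

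In complex I, the highest nuclear levels belonged to Ndufa2 and Ndufa1, both small accessory subunits, and to Ndufs8, a core iron-sulphur subunit. They were 5.69, 4.62 and 3.69 per kb. The lowest were Ndufb2, an accessory subunit of the membrane arm, at 0.0165 and Ndufs1, the largest core iron-sulphur subunit, at 0.0487. Ndufs1 was detected in 39.8% of cells and Ndufb2 in 30.8%, and these were the only nuclear subunits of complex I below 50%. Both have long annotated exons, 8086 bases for Ndufs1 and 5628 for Ndufb2 against a median of 1643.5 in the group. Divided by the longest transcript instead, Ndufs1 rose to 0.148 and Ndufb2 stayed lowest at 0.0212.

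The 9 assembly genes, which are not part of the finished complexes, were all below 50% of cells, a level that 11.8% of all genes reached. A list this short can hold none at that share. Ndufaf3, an early complex I assembly factor, was detected in the most cells, 38.9%, and Ndufaf6 in the fewest, 7.32%. The highest levels per kb were those of Ndufaf8 at 0.470, Ndufaf3 at 0.354 and Ndufaf1 at 0.0814, and the lowest those of Ndufaf4 at 0.0445 and Ndufaf6 at 0.0573. Atp5s, which is related to complex V by its name, stood at 0.0800 and was detected in 18.8% of cells.

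In complex III, all 8 nuclear subunits reached 50% of cells. Among them the small subunits Uqcr10 and Uqcr11 had the highest levels, 4.74 and 3.82 per kb, followed by Uqcrh, the hinge protein, at 2.11. The lowest were the core protein Uqcrc2 at 0.409 and Uqcrfs1, the Rieske iron-sulphur protein, at 0.687.

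Complex IV held both the highest and the lowest nuclear levels. Cox6a1, Cox8a and Cox6b1, small subunits around the catalytic core, stood at 10.2, 7.06 and 5.78 per kb and were detected in 96.3%, 93.9% and 92.8% of cells. Cox4i1, the regulatory subunit, stood at 5.07 and was detected in 99.1%. Per cell, Cox6a1 had a median of 6.54 and a highest value of 30.8 reads per 10000, and Cox4i1 had 7.26 and 44.6. All 4 had medians well above 0, unlike the mitochondrial subunits mt-Co2 and mt-Co3 of the same complex.

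The isoforms of complex IV known from other tissues were detected in few cells. Cox4i2, the isoform of lung and of low oxygen, was detected in 3.66% of cells, Cox6b2, of testis, in 6.40%, Cox7a1, of heart and skeletal muscle, in 2.13%, and Cox8b, of muscle, in 2.59%. Ndufa4l2, a relative of Ndufa4 known to rise in hypoxia, was detected in 3 cells. The ubiquitous partner made up 99.7% of the reads of the Cox4i pair, 98.6% of Cox6b, 99.01% of Cox8 and 99.9% of Ndufa4 (means over cells). The family of Cox7a was shared between Cox7a2 at 50.4% and Cox7a2l, which joins complexes III and IV into supercomplexes, at 49.1%, with Cox7a1 at 0.442%. Cox6a1 and Cox7b were the only members of their families in the table. Only 5 of 12 listed striated muscle genes were in the table, detected in 0.305% to 3.81% of cells. At least 1 of them was read in 0 of the 14 cells with Cox7a1, beside 7.17% of the cells without it. For Cox4i2 it was 7 of the 24 cells with it (29.2%), beside 6.17% of the cells without it. Cells with Cox4i2 were also deeper, with a median of 483060.5 reads against 139079.5.

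In complex V, the catalytic beta subunit Atp5b had the highest level, 2.30 per kb, and the highest detection of any nuclear subunit, 99.2% of cells. Atp5d and Atp5h followed at 2.12 and 1.91. The lowest nuclear subunits were Atp5l at 0.153 and Atp5g1 at 0.205, with exon lengths of 6443 and 4912 bases against a group median of 2181. Atp5g1, Atp5g2 and Atp5g3 encode the same mature c subunit of the rotor ring. They made up 18.7%, 33.1% and 48.2% of their summed reads, and Atp5g3 had the most reads of the family in 55.9% of cells (ties counted for each gene). This was the only family besides Cox7a in which no member held nearly all of the reads.

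**Figure D2:**
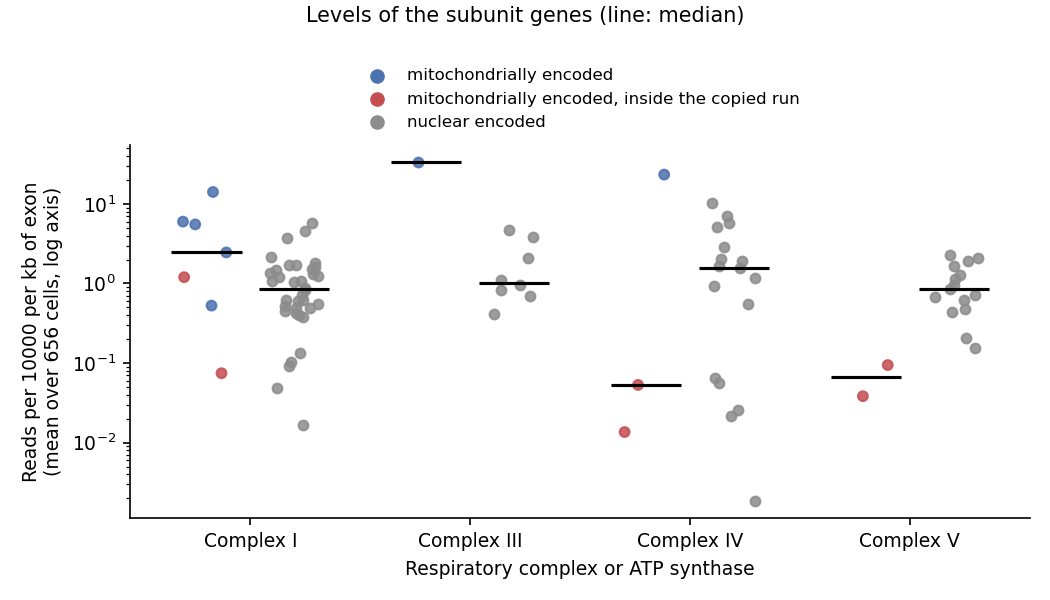
Level of each subunit gene (reads per 10000 per kb of exon, mean over all cells, log axis), with 1 point a gene and a line at each median. The 5 points of complexes I, IV and V that lie below 0.1 among the mitochondrially encoded genes all belong to the copied run, and the 5 low nuclear points of complex IV are tissue isoforms between 0.00186 and 0.0655.

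The comparison of both genomes within a complex depended on the copied genes. The median level per kb of the mitochondrial subunits was 2.90 times that of the nuclear subunits in complex I and 32.9 times in complex III. In complex IV it was 0.0344 times and in complex V 0.0782 times. After leaving out the 6 genes inside the copied run, a choice made after seeing the data, the ratio was 6.53 in complex I and 15.1 in complex IV, where only mt-Co1 then remained. The direction in complex IV thus reversed. Complex III was unchanged at 32.9 because mt-Cytb lies outside the run, and complex V had no mitochondrial gene left. Partial matches touched 11 of the 76 nuclear subunits, 6 of them over more than 25% of the longest transcript, with the longest share in Ndufs5 at 46.9%.

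Promoters of the nuclear subunits were searched for 3 motifs of factors known to act on respiratory genes. RefSeq promoter windows (GRCm38.p6) of 300 bases, from 250 before to 50 after the start, were matched for 63 of the 76 genes, and both strands were searched. The palindromic consensus of NRF1 was found in 15 of the 63 (23.8%) and in 5.19% of 27025 genes with a window. The ETS motif CCGGAAG was found in 14 (22.2%) against 9.93%, and the YY1 motif AAGATGGCG in 7 (11.1%) against 1.64%. The 27025 genes were not limited to genes read in these cells, and no comparison with equally detected genes was made. At least 1 motif was found in 31 of the 63, and no member had overlapping matches of different motifs. Genes with and without the NRF1 motif had median levels of 1.13 and 0.959 per kb, within overlapping ranges of 0.133 to 10.2 and 0.0165 to 7.06. For the ETS motif these medians were 1.58 and 1.03, and for the YY1 motif 0.520 and 1.11, in the opposite direction. The letters are a description and no measure of binding. The 250 bases before the start of Cox6a1 (chr5:115348959-115349208, minus strand) and of Atp5h (chr11:115419920-115420169, minus strand), 2 genes that held both NRF1 and ETS matches, are shown with these matches in capitals.
Cox6a1 promoter: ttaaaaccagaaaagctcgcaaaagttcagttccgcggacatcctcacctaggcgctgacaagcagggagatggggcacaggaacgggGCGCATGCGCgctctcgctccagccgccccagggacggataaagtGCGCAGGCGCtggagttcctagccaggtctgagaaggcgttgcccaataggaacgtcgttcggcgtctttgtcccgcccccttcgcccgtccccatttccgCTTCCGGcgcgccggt
Atp5h promoter: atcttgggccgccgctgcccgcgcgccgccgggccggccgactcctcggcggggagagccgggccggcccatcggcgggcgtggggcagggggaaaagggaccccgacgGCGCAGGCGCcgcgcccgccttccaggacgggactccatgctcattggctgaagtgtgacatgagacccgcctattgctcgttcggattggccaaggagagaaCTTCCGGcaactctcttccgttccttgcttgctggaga

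Summed over genes as counted, nuclear subunits took a larger and steadier share of a cell's reads than mitochondrial mRNAs. The 6 genes inside the copied run added little to the mitochondrial sum, with a median share of 0.0038% against 0.881% for the other 7. Whether reads of the copied genes, or of the matched parts of mt-Co1 and mt-Nd4, were lost in counting was not tested. The shares and ratios below carry this limit. The nuclear subunit share lay between 0.255% and 2.79% (median 1.53%, quartiles 1.29% and 1.76%). The mitochondrial mRNA share lay between 0.0621% and 6.61% (median 0.883%, quartiles 0.651% and 1.26%). The upper quartile was 1.37 times the lower for nuclear subunits and 1.94 times for mitochondrial mRNAs. The ratio of mitochondrial mRNA to nuclear subunit reads in a cell lay between 0.0738 and 15.2 (median 0.579), and it exceeded 1 in 130 cells (19.8%). Cells over 10% mitochondrial reads had been discarded upstream, which bounds the upper end, and mRNAs, rRNAs and tRNAs together reached 9.13%.

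Cells with a higher mitochondrial mRNA share did not tend to have a higher nuclear subunit share, and amounts per cell were not measured. Across all cells the Spearman rho between both shares was -0.193 (Pearson -0.340). The shares have the same denominator, and with mitochondrial and 2 ribosomal RNA genes left out of it rho was -0.160. In 12 runs of 96 consecutive cell numbers rho ranged from -0.299 to 0.0795, with 11 below 0. The rho to total reads was -0.0421 for mitochondrial mRNA and -0.0401 for nuclear subunits (Pearson 0.0813 and -0.160). The 2 deepest of the 12 runs, with 18 and 20 cells and median reads of 2450279.5 and 2042788.5, had the highest median mitochondrial mRNA shares, 1.25% and 1.44% against at most 0.953% in the others. They also had the lowest median nuclear subunit shares, 1.31% and 1.25%. Without these cells the medians over all cells were 0.867% and 1.55%. The mitochondrial mRNA share went with the mitochondrial rRNA share, with a rho of 0.622.

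**Figure D3:**
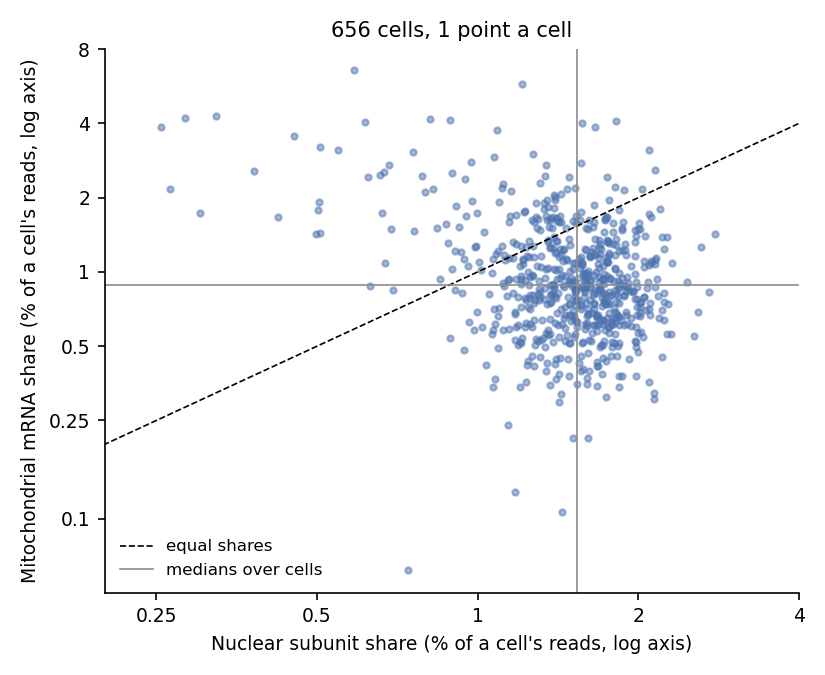
Mitochondrial mRNA share against nuclear subunit share of a cell's reads (percent, both axes log), with 1 point a cell, grey lines at the medians (0.883% and 1.53%) and a dashed line at equal shares. The 130 cells above the dashed line (19.8%) had more mitochondrial mRNA than nuclear subunit reads as counted, and the rho over all points was -0.193. Genes of the copied run add little to the mitochondrial share, and whether their reads were lost in counting was not tested.

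The pattern was repeated gene by gene. Pairwise rho within the 6 well-read mitochondrial mRNAs lay between 0.346 and 0.690 (median 0.530 over 15 pairs), with the highest value between mt-Nd1 and mt-Cytb. Within the 69 nuclear subunits that reached 50% of cells the median was 0.0829 over 2346 pairs, and 96.5% of pairs were above 0. Between all 13 mitochondrial mRNAs and these nuclear subunits it was -0.0364, with 33.7% of pairs above 0, and for the 6 well-read mRNAs alone -0.0752, with 8.45% above 0. Without the 18 cells over 5% mitochondrial reads the median between all 13 and the nuclear subunits was -0.0196. Sparse counts give weak values, and these are given as a description only.

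The mitochondrial mRNAs formed separate blocks, except for mt-Nd3 and mt-Nd6. Over all 13 the median rho was 0.213. It was 0.463 among the 7 genes not inside the copied run, 0.412 among the 6 genes inside it and 0.159 between these groups. The highest value, 0.848, was between mt-Atp6 and mt-Atp8, which overlap. The values of mt-Nd3, inside the run, were 0.153 to 0.224 with the other genes inside it and 0.112 to 0.246 with the 7 other genes. Those of mt-Nd6, not inside the run, were 0.147 to 0.314 with its own group and 0.112 to 0.225 with the genes inside. The block inside the run went with depth: after thinning to 20000 reads its median rho was -0.0112, where the genes were detected in few cells, whereas that of the 7 other genes was 0.413.

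**Figure D4:**
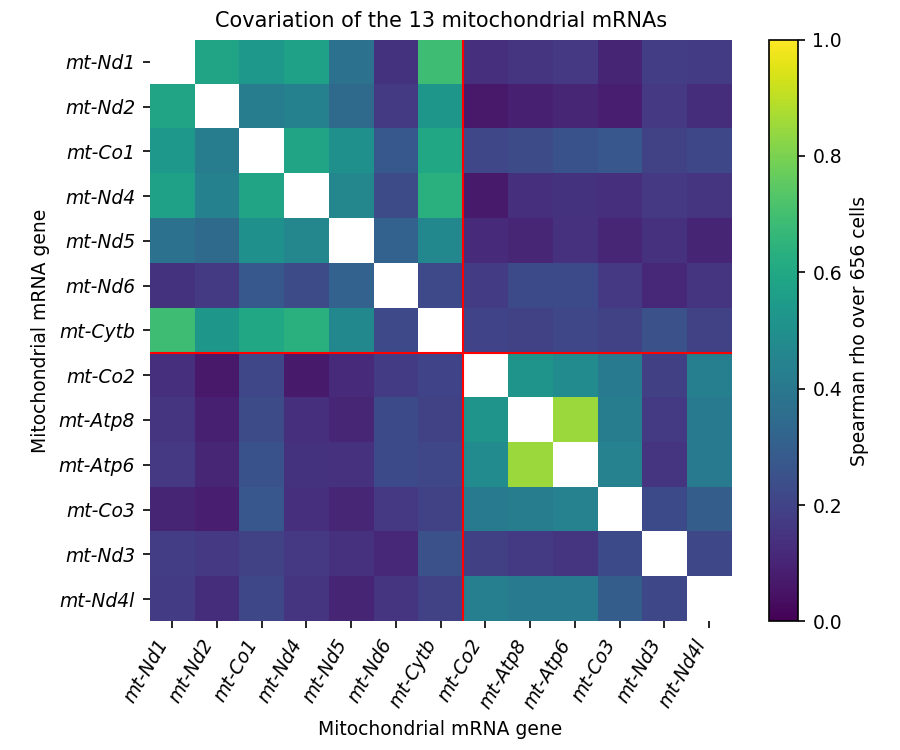
Spearman rho over all cells between each pair of the 13 mitochondrial mRNAs, with the 7 genes not inside the copied run before the red lines and the 6 genes inside it after them. By their medians (0.463 and 0.412) both diagonal blocks are brighter than the block between them (0.159), but the rows of mt-Nd3 and mt-Nd6 are dim throughout.

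Among nuclear subunits, pairs of the same complex did not stand apart from pairs of different complexes, with medians of 0.0793 and 0.0841. Complex IV had the highest median within a complex, 0.138, and complex I the lowest, 0.0738. By median rho to the other nuclear subunits, Atp5j2, Uqcr11, Cox6c, Cox7b and Atp5g2 were highest, from 0.110 to 0.125. Cox7a2l, Ndufv1, Ndufs7 and Ndufb5 were among the lowest, from 0.0477 to 0.0587. The whole order covered a narrow range, and members of complexes I and IV stood among the last.

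The genes outside the set that were most like each share differed. Over the 2644 other genes that reached 50% of cells, the nuclear subunit share was most like the cytosolic ribosomal protein genes Rps15a (rho 0.458), Rpl37a (0.428), Rps14 (0.426) and Rpl34 (0.424) and Gm10076 (0.428), and its rho to the summed ribosomal protein share was 0.477. The mitochondrial mRNA share was most like CT010467.1 (0.327), Malat1, a nuclear-retained long noncoding RNA (0.305), Xist, the X-inactivation RNA (0.203), Tcf4 (0.182) and Macf1 (0.181), and its rho to the ribosomal protein share was -0.252. Malat1 was the gene least like the nuclear subunit share (-0.360), and Gm10076 was the gene least like the mitochondrial mRNA share (-0.408). The median gene stood at 0.0331 for the nuclear and -0.0432 for the mitochondrial share.

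Other genes of energy metabolism give the setting of these levels, and shares of cells here are not corrected for length. All complex II subunits are nuclear, and Sdha and Sdhb were detected in 92.1% and 80.6% of cells and Sdhd and Sdhc in 59.3% and 48.8%. The electron carrier Cycs and its complex III partner Cyc1 were detected in 66.6% and 71.2%. Carriers of the inner membrane were among the most widely read, with the phosphate carrier Slc25a3 in 97.4% and the ADP/ATP carrier Slc25a4 in 95.7%, and the pores of the outer membrane Vdac1 and Vdac3 in 64.6% and 62.8%. Assembly genes of the other complexes were detected over a wide range. Those that reached 50% of cells were 1 of 6 for complex III, 2 of 18 for complex IV and 0 of 3 for complex V, beside 11.8% of all genes. Coa3 and Cox14 (62.8% and 57.3%) led the complex IV list with Taco1 and Cox20 lowest (5.34% and 6.25%), and Uqcc2 and Uqcc3 (62.5% and 48.5%) led the complex III list with Bcs1l and Lyrm7 lowest (14.8% and 3.05%). Tmem70, Atpaf2 and Atpaf1 for complex V were detected in 28.5%, 23.9% and 13.3%.

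Of 14 genes that copy, transcribe or protect the mitochondrial genome and its RNA, none reached 50% of cells, beside 11.8% of all genes. A list this short can hold none at that share. Ssbp1, the mitochondrial single-strand binding protein, and Polg2, a subunit of its polymerase, were detected in 41.5% and 42.2%, and Tfb1m and Slirp in 3.20% and 0.610%. Among 11 nuclear regulators, Epas1, which encodes HIF-2α, was detected in 94.1% and Yy1 in 52.9%, whereas the coactivators Ppargc1a and Ppargc1b were detected in 2.29% and 8.08%. Nrf1 and Gabpa, whose factors bind the NRF1 and ETS motifs, were detected in 43.1% and 26.8%.

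Of 18 glycolysis genes, 11 reached 50% of cells, beside 11.8% of all genes. Gapdh and Aldoa were highest, in 98.5% and 97.3% and at 3.20 and 2.22 reads per 10000 per kb, within the range of the nuclear subunits. Hk2 and Slc16a1 were lowest, in 2.29% and 3.05%. The summed glycolysis share had a median of 0.403% and a rho of 0.368 to the nuclear subunit share. Of 14 fatty acid oxidation genes 4 reached 50%, beside the same 11.8% of all genes. Etfa (68.8%) and Hadha (58.7%) led them, with Acads in 10.98% and the muscle gene Cpt1b in 0 cells. Of 7 genes known as hypoxia targets, Ddit4 and Egln3 were detected in 74.5% and 27.6%, and Ankrd37 and Car9 in 3.66% and 1.07%.

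The cells were also grouped into 5 clusters, built without the members among the variable genes and with the mitochondrial share regressed out. Cluster 1 (32.9% of cells) had raised levels of 6 of 6 Ptx3+ capillary markers and is called Ptx3+ capillary-like, with Plvap and Aqp1, also markers of blood endothelium, raised as well. The others are called by number and leading genes, namely cluster 2 (25.2% of cells, Ahsg, Spp1 and Kng2), cluster 3 (15.7%, Tppp3, Fbln7 and Fndc1), cluster 4 (15.2%, Pthlh, Anxa8 and Ptn) and cluster 5 (10.98%, Fxyd2, Gdf15 and Gdf10). With 1 pool, differences between clusters have no test.

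In these clusters the median shares of both sets lay within the spread between cells. The median mitochondrial mRNA share was 0.895%, 0.850%, 0.787%, 0.908% and 1.15% in clusters 1 to 5, so that the highest was 1.46 times the lowest. Regressing out the mitochondrial share works against separation by that share, and in clusters built without it the highest was 2.55 times the lowest. Within cluster 5 the quartiles were 0.801% and 1.61%, and within cluster 3 they were 0.614% and 1.15%, so the middle ranges overlapped. Median nuclear subunit shares were 1.46%, 1.53%, 1.56%, 1.72% and 1.58%, with the highest 1.18 times the lowest and quartiles of 1.20% and 1.73% in cluster 1 and of 1.36% and 1.88% in cluster 4. Median reads per cell ranged from 73757 in cluster 4 to 186158 in cluster 2. The rho between both shares was below 0 in every cluster, from -0.318 to -0.147.

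**Figure D5:**
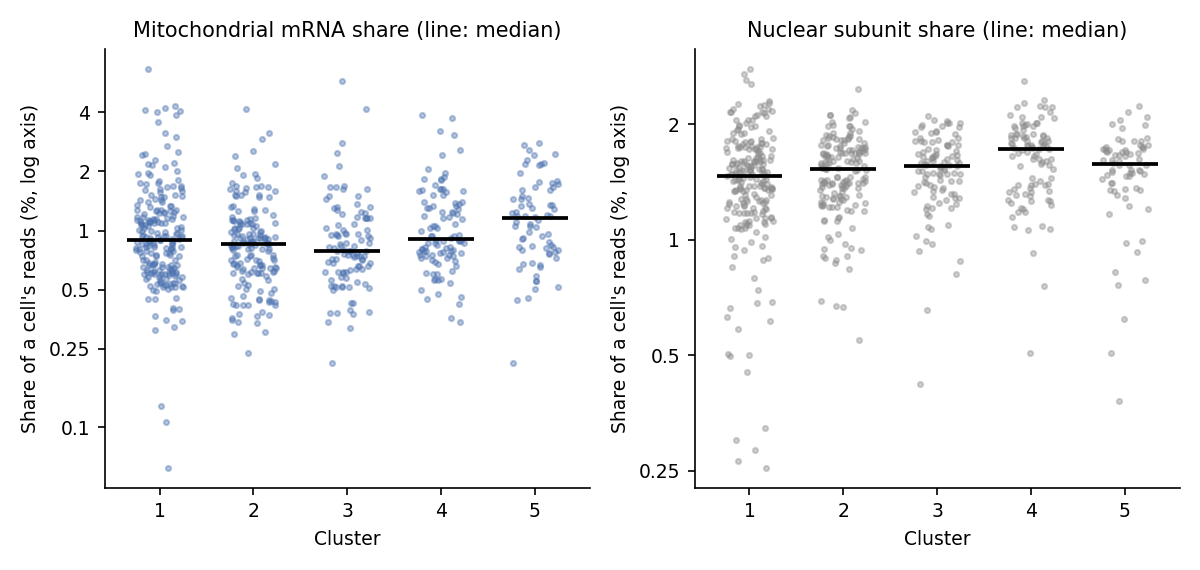
Mitochondrial mRNA share (left) and nuclear subunit share (right) of a cell's reads (percent, log axes) in 5 clusters, with 1 point a cell and a line at each median. Cluster medians lie between 0.787% and 1.15% on the left and between 1.46% and 1.72% on the right, within the spread of cells of each cluster.

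Most single members varied by less than 1.5 times between clusters. Of the 2724 genes that reached 50% of cells, 47.3% had a highest cluster mean at least 1.5 times the lowest, after adding 0.1 reads per 10000 to both. Of the nuclear subunits 10 of 69 (14.5%) did and of the mitochondrial mRNAs 2 of 8. The median ratio was 1.31 for nuclear subunits and 1.42 for mitochondrial mRNAs beside 1.48 for all genes. Members had been kept out of the variable genes that built the clusters, and the mitochondrial share had been regressed out. The other genes were not filtered in this way, so members and all genes are not compared on equal terms. Of the nuclear subunits, 30 of 69 (43.5%) had their highest mean in cluster 4, the cluster with the fewest reads per cell, beside 18.8% of all genes that reached 50% of cells. Their lowest mean was in cluster 1 for 22 (31.9%), beside 18.3% of all such genes. The largest ratio among subunits was that of Ndufa4, the complex IV-associated subunit, with means of 2.71 reads per 10000 in cluster 5 and 1.34 in cluster 3. The mitochondrial mRNAs past this limit were mt-Nd1, at 17.5 in cluster 5 and 10.8 in cluster 2, and mt-Nd3, at 0.594 and 0.340. mt-Tp varied more than any subunit, from 0.170 in cluster 3 to 0.545 in cluster 4. Ndufa4, mt-Nd1, mt-Nd3 and mt-Tp were named here after their values were seen.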

How the data were processed

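According to the methods, STAR was used by the authors for alignment to mm10 and featureCounts for reads per gene, followed by removal of cells with under 2000 genes or over 10% mitochondrial reads. The settings for multiply aligned reads and strand are not given in the sources used here. The deposited values are the natural log of 1 plus reads per 10000 reads of the cell, from which 100.0% of values above 0 gave whole reads within 0.01 reads. Counts are of reads and not of molecules. Of 1152 labelled cells 656 had a column and were analysed, and 568 of these held at least 20000 reads. No column lacked a sample.

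A gene was called detected above 0. Exon lengths (union of exons) and positions came from GENCODE M21, in which all members (114 of 23168 genes) were found. Copies were sought with BLAST+ 2.17.0 among its transcripts (at least 99% identity over 100 bases); unannotated copies were not sought. Shares, Spearman correlations and thinning (seed 1) used Python 3.11.15, numpy 2.4.6 and scipy 1.17.1. Clusters followed the steps of the study in Seurat 5.3.0 (2000 variable genes less 4 members, 15 principal components, resolution 0.7, 5 clusters). Leading genes were those with the highest fold over the other cells, detected in at least 10% of the cluster. No doublet caller was run, since cells were sorted singly. Simulated data were used to test read recovery, thinning, correlations and cluster folds.

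Genes named were all mitochondrial mRNAs and rRNAs, the 3 highest and 2 lowest per length of each nuclear group, tissue isoform families, the ends of the order by rho, the nearest genes outside the set, the 3 most detected tRNAs, and the 2 highest and 2 lowest of each pathway list by mean level. The result of 1 gene that this rule named is not reported here. Members and lists were chosen with earlier results of these data known. Groups came from the labels, and all cells formed 1 group.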

Additional observations from a re-analysis of the deposited data

Results flagged for a closer look

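Rows outside the set that nonetheless held its sequences had reads in more than 3 cells, or 0.457% of cells, the limit taken for a count of 0. All values below also lie above 0.561%, the upper end of the exact interval for 0 cells, except where 0 reads are given. Among symbols with -ps, Atp5l-ps1 was detected in 2.44% of cells, Atp5l2-ps in 2.74% and Ndufab1-ps in 1.52%, whereas Atp5l-ps2 and Uqcrh-ps1 had 0 reads. Among the copies on chr1, Gm28437 was detected in 40.1% of cells, Gm10925 in 38.6%, Gm29216 in 21.2%, Gm28661 in 19.8%, Gm10222 in 13.7%, Gm28439 in 11.6% and Gm28438 in 1.83%. Among the copies on chr2, Gm13340, which matches mt-Co1 at 97.6% identity, was detected in 9.45% and Gm13341, which matches mt-Co2 at 95.9%, in 3.05%. There were no control samples, and whether these reads came from the copies or from the genes they match was not tested.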

How the results depend on the processing

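Of the values recomputed under alternatives, 89 stayed within 1.5 times of the reported value and in its direction, 13 moved further and 1 reversed. Without the mitochondrial genes inside the copied run, chosen after seeing the data, the complex IV ratio reversed to 15.1, the complex I ratio was 6.53, the rho within mitochondrial mRNAs 0.463 and that between mitochondrial and nuclear genes -0.0656. With no division by length the ratios were 17.3 in complex III, 0.0195 in IV and 0.0125 in V. The longest transcript as length gave 0.0464 in complex V, and geometric means gave 0.432 in complex IV. Thinning lowered the rho within mitochondrial mRNAs to 0.101. The rho between both sets was -0.0196 without the 18 cells over 5% mitochondrial reads and -0.0575 with the number of detected genes regressed. Detection called above 1 in natural log units left 33 members in at least 50% of cells. Clustering without regression of the mitochondrial share raised the range of its cluster medians to 2.55 times. Leaving out 2 runs of 96 cell numbers with the most reads (38 cells), also chosen after seeing the data, changed no value by more than 1.5 times. The causes were not tested. No paired analysis was possible because there was 1 group without replicates. Depth limits detection of the copied genes, as given above.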
